A study of Mus musculus with 9 samples.

Results

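The 36 genes described here encode proteins that carry a cell from G1 into and through mitosis, and they were taken by name as a fixed list of cyclins, cyclin-dependent kinases (CDKs), CDK inhibitors, cell cycle transcription factors and mitotic machinery. All 36 were found in a table of 52636 genes, and all 36 were among the 14583 genes that passed the filter on low counts. The RNA came from mouse liver endothelial cells, which were sorted for CD31 and against CD45 after VE-cadherin antibody had been given in vivo. Of the libraries, 5 carry the genotype label Erg and Fli1 double knockout, and the other 4, the Control libraries, carry the label Wild Type. The labels give tamoxifen for both groups, and all 9 libraries were taken on day 7 after it. The sources used here give neither a Cre driver nor the age of the animals. Nothing in the labels says that each library came from its own animal, so p-values measure the spread between these libraries, which may in part be technical.

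In a dividing cell, D-type cyclins bind CDK4 and CDK6 and begin the phosphorylation of the retinoblastoma protein, cyclin E with CDK2 completes it, and the released E2F factors switch on genes for DNA synthesis. CDK inhibitors such as p27, the product of Cdkn1b, hold these kinases back in resting cells. Genes for mitosis itself are switched on later, through MuvB complexes with B-MYB and FOXM1 that act at a short promoter element called the CHR, and the cyclin B and CDK1 kinase then drives entry into mitosis. Most endothelial cells of the adult liver are at rest, so mitotic transcripts in a bulk sample come from a minority of cells. Fewer dividing cells and less RNA per dividing cell cannot be told apart in such data.

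The targeted genes were read first, as a check on the labels. Erg lay at 142.9 ± 10.9 CPM in the libraries labelled KO (SD, n = 5) and at 311.6 ± 17.8 CPM in Control libraries (n = 4), where CPM is the count scaled to library size with TMM factors. Fli1 lay at 147.4 ± 22.5 CPM in the libraries labelled KO and at 100.1 ± 8.01 CPM in Control, higher where a loss is labelled. Gene-level counts can hold exons outside a deleted part, and the 5 libraries are therefore called labelled KO throughout, each direction being relative to that label. Library totals ran between 26791371 and 36401682 counts in libraries labelled KO and between 31613059 and 34663989 in Control, at which 1 count was worth 0.0260 to 0.0368 CPM. The member with the fewest reads, Ccne1, had 10 counts in its lowest library.

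Promoter sequences are shown for 6 members because the elements through which cell cycle genes are switched on can be read in them directly. RefSeq promoter windows on GRCm38.p6, from 250 bases before to 50 bases after a transcript's start, were matched by symbol for 29 of the 36 members. Ccnd1, Ccnd2, Ccne2, Foxm1, Ccna2, Aurkb and Tpx2 had no window. Each window was searched on both strands for the CHR, spelled TTTGAA in its usual form and in a variant form TTCGAA, for the box of NF-Y, spelled CCAAT, and for the E2F letters TTTGGCGC, TTTCGCGC, TTTCCCGC and TTTGCCGC, besides the ETS letters ACCGGAAGT. The 250 bases before the start are printed 5′ to 3′ on the strand of the gene, with matches in capitals. The first pair belongs to members that act in G1, and the other 4 to mitotic genes.
Ccnd3 (chr17:47504801-47505050, plus strand): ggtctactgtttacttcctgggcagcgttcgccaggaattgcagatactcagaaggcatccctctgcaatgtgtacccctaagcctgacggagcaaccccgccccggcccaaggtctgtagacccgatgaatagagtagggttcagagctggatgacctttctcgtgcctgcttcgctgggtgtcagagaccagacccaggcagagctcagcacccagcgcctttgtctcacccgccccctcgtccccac
Cdkn1b (chr6:134920151-134920400, plus strand): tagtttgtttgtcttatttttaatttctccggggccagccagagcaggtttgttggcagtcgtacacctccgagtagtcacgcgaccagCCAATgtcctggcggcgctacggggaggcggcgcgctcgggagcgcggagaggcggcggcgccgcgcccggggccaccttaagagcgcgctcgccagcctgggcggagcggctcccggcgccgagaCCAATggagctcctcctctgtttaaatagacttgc
Kif23 (chr9:61946800-61947049, minus strand): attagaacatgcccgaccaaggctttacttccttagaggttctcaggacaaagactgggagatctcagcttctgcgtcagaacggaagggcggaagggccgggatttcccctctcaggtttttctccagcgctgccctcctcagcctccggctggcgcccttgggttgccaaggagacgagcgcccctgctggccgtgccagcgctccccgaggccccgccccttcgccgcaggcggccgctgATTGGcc
Ccnb2 (chr9:70421555-70421804, minus strand): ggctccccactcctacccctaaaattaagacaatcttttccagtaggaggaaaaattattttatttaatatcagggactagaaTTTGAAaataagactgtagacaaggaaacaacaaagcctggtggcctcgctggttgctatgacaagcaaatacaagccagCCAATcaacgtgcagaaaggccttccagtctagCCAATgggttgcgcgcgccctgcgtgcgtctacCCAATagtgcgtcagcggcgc
Cdk1 (chr10:69352913-69353162, minus strand): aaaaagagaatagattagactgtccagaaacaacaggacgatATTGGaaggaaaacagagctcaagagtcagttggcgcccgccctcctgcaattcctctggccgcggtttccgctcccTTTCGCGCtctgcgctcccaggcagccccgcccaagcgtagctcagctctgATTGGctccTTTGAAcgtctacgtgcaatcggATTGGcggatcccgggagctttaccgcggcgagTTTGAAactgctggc
Top2a (chr11:99024190-99024439, minus strand): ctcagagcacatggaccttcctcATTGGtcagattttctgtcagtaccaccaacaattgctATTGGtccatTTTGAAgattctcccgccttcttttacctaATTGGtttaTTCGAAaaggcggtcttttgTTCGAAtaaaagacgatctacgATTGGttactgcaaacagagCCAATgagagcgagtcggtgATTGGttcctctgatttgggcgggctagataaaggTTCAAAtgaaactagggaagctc

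CHR letters were found in the windows of 16 of the 20 mitotic-phase members that had one, and in 19.2% of all 32851 windows. Kif23, whose printed stretch shows 1 CCAAT box in reverse just before the start, has its TTTGAA at position 3 after the start, outside the printed bases. Cdk1 shows CHR letters, CCAAT boxes and an E2F match, and Top2a shows both spellings of the CHR, while the printed Ccnd3 stretch shows none of the letters searched. Another Ccnd3 window, not printed, holds CCAAT at position -108 from its own start. CCAAT occurred in 17 of the 20 mitotic windows and in 37.4% of all windows. E2F letters occurred in 3 of 29 members' windows (2.26% of all windows), and the ETS letters in 1 of 29, that of Cenpf (1.10% of all windows). A gene counted once if any of its windows held the letters, while the percentages count each window singly. The counts of members and the percentages are therefore unlike measures, and a gene with several windows had more chances of a match. These matches are descriptions of sequence, and no binding was measured.

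The members whose groups did not overlap all act in G1, though other G1 members were not called. All 3 D-type cyclins fell in the libraries labelled KO and the CDK inhibitor gene Cdkn1b rose, in each case without overlap between the groups. Of the 36 members, 4 were lower and 1 was higher when called by edgeR (quasi-likelihood, adjusted p below 0.05), shares no larger than in the whole table, where 14.8% of the 14583 genes were lower and 14.5% higher. By the plainer criterion of no overlap between groups, 3 members were lower and 1 was higher, against 13.8% and 13.2% of all genes. The median log2 fold change of the members was -0.65, beside 0.01 for all genes tested, and 33 of the 36 had a fold change below 0. The 23 mitotic-phase members described further on had a median of -0.69, and the other 13 members one of -0.53.

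Ccnd1, which encodes cyclin D1, the mitogen-responsive partner of CDK4 and CDK6, showed the largest change of the list (ENSMUSG00000070348, GRCm38 chromosome 7, 144929931 to 144939925, minus strand). Replicates 1 to 5 of the libraries labelled KO had 272.0, 183.6, 198.6, 164.8 and 150.9 CPM, and Control replicates 1 to 4 had 669.4, 576.6, 436.6 and 685.2 CPM. The highest library labelled KO stood well under the lowest Control library. Ccnd1 was 3.05-fold lower (log2 fold change -1.61 ± 0.19, SE, edgeR adjusted p = 3.22e-04). It was called in all 19 alternative fits, with log2 fold changes between -1.76 and -1.44.

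Ccnd2, cyclin D2, had 135.1, 128.2, 154.1, 129.3 and 124.7 CPM in the libraries labelled KO and 213.3, 211.8, 218.2 and 274.1 CPM in Control. It was 1.71-fold lower (log2 -0.77 ± 0.10, SE, edgeR adjusted p = 5.46e-04). Ccnd3, cyclin D3, had 135.9, 118.1, 105.5, 129.7 and 125.7 CPM in the libraries labelled KO and 190.9, 196.7, 183.3 and 195.6 CPM in Control. The Control values of Ccnd3 lay within a narrow band, all above every library labelled KO, and the gene was 1.56-fold lower (log2 -0.64 ± 0.08, SE, edgeR adjusted p = 4.87e-04). Both kept their calls in all 19 alternatives.

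The D cyclins did not fall in equal measure. Divided by exon length, Ccnd1 had 2.42 to 4.02 times the level of Ccnd2 in libraries labelled KO and 4.0 to 6.27 times in Control. Against Ccnd3 the same ratio was 2.24 to 3.73 in libraries labelled KO and 4.44 to 6.53 in Control. On the log2 scale the Ccnd1 to Ccnd2 ratio was lower by a difference of -0.85 (labelled KO minus Control) and the Ccnd1 to Ccnd3 ratio by -0.97, with adjusted p = 0.0423 and 0.0317 in two-sided exact permutation tests over the 4 ratios tested. The Ccnd2 to Ccnd3 ratio differed by -0.12 on that scale (exact permutation adjusted p = 0.413), with 0.92 to 1.36 in libraries labelled KO and 1.0 to 1.31 in Control. With 5 libraries against 4, the smallest unadjusted p that such a test can give is 0.0159. These ratios were chosen after the values were seen.

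**Figure D1:**
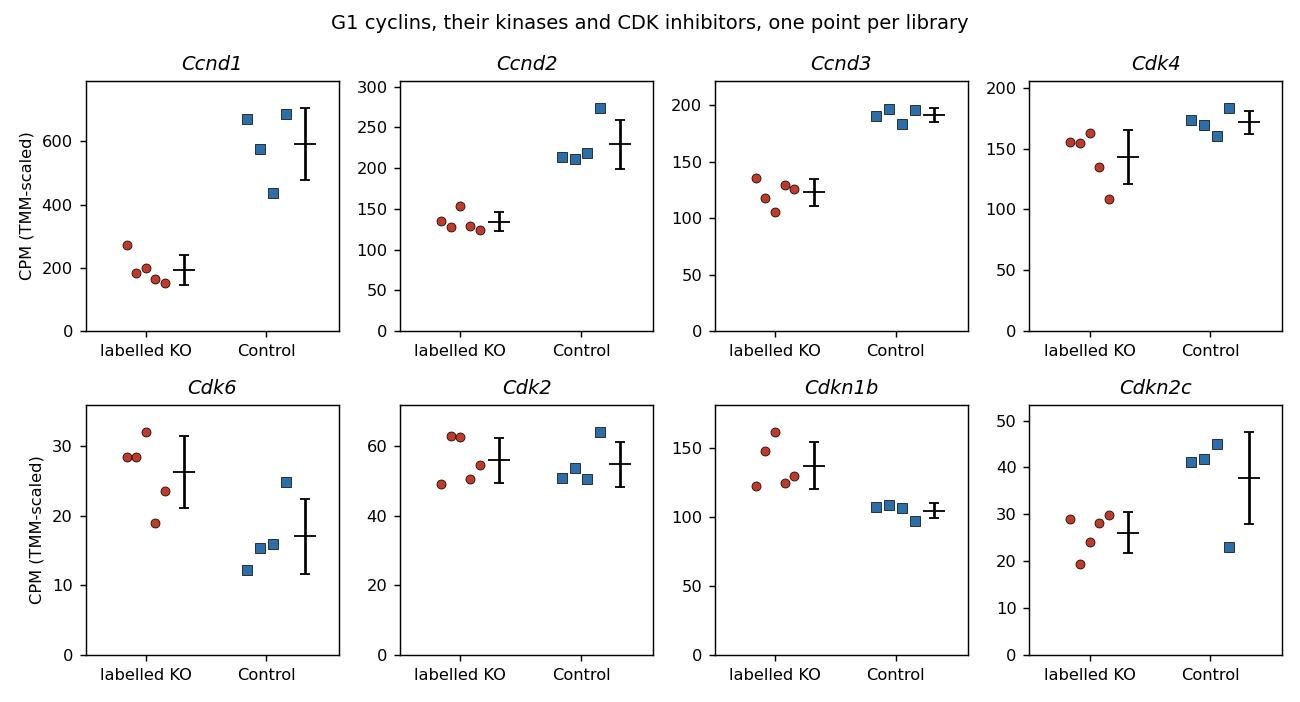
TMM-scaled CPM (linear axes from 0) of 8 members that act in G1, with 1 point per library (circles, 5 libraries labelled KO; squares, 4 Control) and bars for mean ± SD. Every Ccnd1, Ccnd2 and Ccnd3 value in libraries labelled KO lies below every Control value, and Cdkn1b shows the reverse, from 121.9 to 161.6 CPM in libraries labelled KO and from 96.7 to 108.1 CPM in Control.

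Neither catalytic partner of the D cyclins was called. Cdk4 averaged 143.1 ± 22 CPM in libraries labelled KO and 171.6 ± 9.60 CPM in Control, with overlap between the groups (log2 -0.26 ± 0.12, SE, edgeR adjusted p = 0.120). Cdk6, the kinase that shares the D cyclins with Cdk4, had 28.5, 28.4, 32.1, 18.9 and 23.5 CPM in libraries labelled KO and 12.2, 15.3, 15.9 and 24.8 CPM in Control. Control replicate 4 was the only Control library inside the range of the libraries labelled KO. Leaving out a library because it overlaps favours a call, here and for the genes below. The log2 fold change of Cdk6 was 0.62 ± 0.22 (SE), with an edgeR adjusted p of 0.0559 with all libraries and 0.0100 without Control replicate 4 (0.0100 to 0.179 over the alternatives). The ratio of Cdk4 to Cdk6, taken per exon length, was 19.86 to 30.71 in libraries labelled KO and 31.79 to 61.08 in Control, a log2 difference of -0.92 (exact permutation adjusted p = 0.0317 over the 4 ratios). This ratio, like the others, was chosen after the values were seen, so its p is not an independent test. Tspan31, which shares 641 exon bases with Cdk4 on the other strand, rose (log2 0.50 ± 0.07, SE, edgeR adjusted p = 9.72e-04), and reads of the pair cannot be separated if counting ignored strand.

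Cdkn1b encodes p27, which binds and holds cyclin and CDK complexes inactive in resting cells. Its libraries labelled KO had 121.9, 147.5, 161.6, 124.1 and 129.2 CPM, and its Control libraries had 106.7, 108.1, 106.0 and 96.7 CPM. It rose 1.31-fold (log2 0.39 ± 0.10, SE, edgeR adjusted p = 0.0134) and was called in all 19 alternatives. Cdkn2c, which encodes p18, an inhibitor of CDK4 and CDK6, had 29, 19.3, 24.1, 28.1 and 29.9 CPM in libraries labelled KO and 41.1, 41.9, 44.9 and 23.1 CPM in Control. Here 3 Control libraries stood above all libraries labelled KO, and Control replicate 4 lay among them (log2 -0.53 ± 0.20, SE, edgeR adjusted p = 0.0697, and 0.00747 without that library).

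The cyclin E and CDK2 step gave no call. Cdk2 had 49.2, 62.9, 62.6, 50.6 and 54.7 CPM in libraries labelled KO and 50.8, 53.6, 50.5 and 64.2 CPM in Control, with full overlap (log2 0.03 ± 0.11, SE). The cyclin E2 gene Ccne2 had 3.74, 1.64, 3.48, 3.20 and 2.0 CPM in libraries labelled KO and 5.76, 5.65, 4.54 and 3.34 CPM in Control. Its groups overlapped through Control replicate 4 alone (log2 -0.78 ± 0.28, SE, edgeR adjusted p = 0.0650, and 0.0472 without that library). Cyclin E1, from Ccne1, was at 0.334 to 2.55 CPM in libraries labelled KO and 1.15 to 3.0 CPM in Control, with overlap (log2 -0.45 ± 0.50, SE).

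Transcription factors of the cycle were low and variable. E2f1, an activator of S phase genes, had 8.22, 4.63, 9.85, 4.57 and 3.04 CPM in libraries labelled KO and 12.8, 13.6, 7.97 and 9.13 CPM in Control (log2 -0.84 ± 0.33, SE, edgeR adjusted p = 0.0875). Without replicate 3, the highest of the libraries labelled KO, the edgeR adjusted p of E2f1 was 0.0288. Over the 19 alternatives it ran from 0.0288 to 0.205, and E2f1 was called in 2. E2f2, a related activator, had 5.68, 2.72, 5.98, 5.08 and 2.94 CPM in libraries labelled KO and 8.67, 9.90, 11.6 and 4.37 CPM in Control. Its log2 fold change was -0.95 ± 0.33 (SE, edgeR adjusted p = 0.0542), and the gene passed without replicate 3 of the libraries labelled KO (0.0474) or without Control replicate 4 (0.0182). Over the 19 alternatives its adjusted p ran from 0.0182 to 0.164, and E2f2 was called in 3. For E2f2 too, only Control replicate 4 lay inside the range of the libraries labelled KO. Foxm1, which activates late mitotic genes, had 24.6, 13.5, 28.5, 17.9 and 23.1 CPM in libraries labelled KO and 26.7, 32.1, 37.8 and 18.7 CPM in Control (log2 -0.42 ± 0.24, SE, edgeR adjusted p = 0.228). It was not called in any of the 19 alternatives.

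Mitotic genes moved as a block between libraries, and 1 Control library broke the separation of the groups. The 23 members in question are the proliferation markers Mki67 and Top2a, the mitotic cyclins with Cdk1 and Cdc20, the mitotic kinases and checkpoint genes, the chromosomal passenger genes, and genes of kinetochore, spindle and cytokinesis. All 23 had a log2 fold change below 0, between -1.01 and -0.12 with a median of -0.69. Of the 23, 1 was called lower, beside 14.8% of all genes. For none of them were the groups free of overlap, beside 13.8% of all genes lower and 13.2% higher by that criterion. Control replicate 4 was the lowest Control library for all 23, at or below the median of the libraries labelled KO in every case. Replicate 2 was the lowest of the libraries labelled KO for all 23 and the lowest of all 9 libraries for 21. Summed over the 23 genes, the libraries labelled KO held 411.9, 185.1, 408.2, 319.9 and 371.5 CPM, and the Control libraries held 562.5, 630.5, 700.0 and 267.3 CPM. The mean of Control replicates 1 to 3 was 1.96 to 3.59 times the value of Control replicate 4, depending on the gene. Fits without Control replicate 4, given below gene by gene, leave out the lowest Control library of each gene. They thus favour a lower call and serve as description only.

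Mki67 encodes Ki-67, which coats mitotic chromosomes and is widely used as a proliferation marker. It had 54.3, 20.4, 50.6, 41.0 and 52.5 CPM in libraries labelled KO and 71.4, 91.6, 101.8 and 39.8 CPM in Control. The 3 higher Control libraries stood above every library labelled KO, and the fourth lay among them (log2 -0.80 ± 0.32, SE, edgeR adjusted p = 0.0910). Top2a, the topoisomerase that untangles sister chromatids, had 51.8, 19.2, 53.0, 34.7 and 41.1 CPM in libraries labelled KO and 70.6, 78.6, 88.6 and 34.2 CPM in Control. For Top2a the log2 fold change was -0.77 ± 0.33 (SE, edgeR adjusted p = 0.109), and the order of the libraries was much like that of Mki67. Without Control replicate 4 the log2 fold changes were -1.01 for Mki67 and -0.99 for Top2a, with edgeR adjusted p = 0.0328 and 0.0362.

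**Figure D2:**
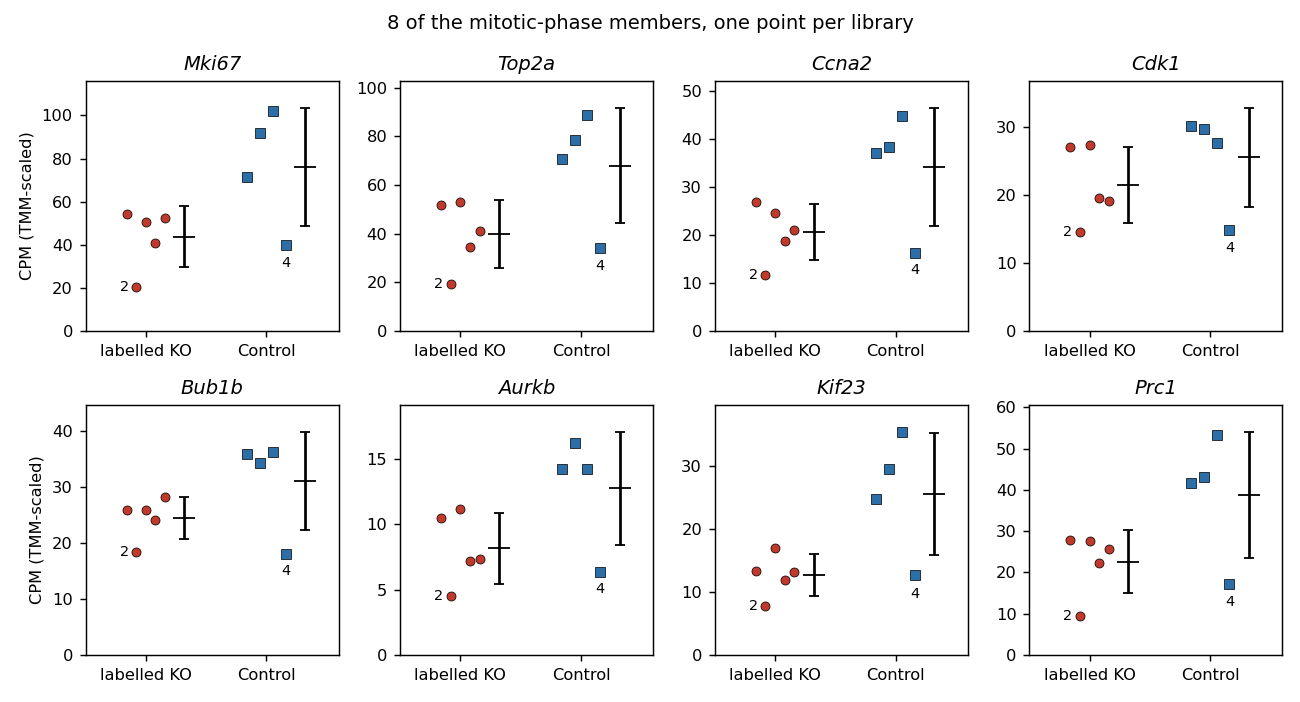
TMM-scaled CPM (linear axes from 0) of 8 mitotic-phase members, with 1 point per library (circles, 5 libraries labelled KO; squares, 4 Control) and bars for mean ± SD. The digit 2 marks replicate 2 of the libraries labelled KO and the digit 4 marks Control replicate 4, each the lowest of its group in every panel, such as 20.4 and 39.8 CPM for Mki67.

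Among the mitotic cyclins and their partners no gene passed the test. Ccna2, cyclin A2, which serves both DNA synthesis and early mitosis, had 27, 11.7, 24.6, 18.9 and 21.0 CPM in libraries labelled KO and 37.2, 38.5, 44.8 and 16.4 CPM in Control (log2 -0.73 ± 0.30, SE, edgeR adjusted p = 0.101, and 0.0185 without Control replicate 4). The genes of the mitotic kinase itself differed least of the block: Cdk1 averaged 21.5 ± 5.57 CPM in libraries labelled KO and 25.5 ± 7.24 CPM in Control, and cyclin B1, from Ccnb1, 4.52 ± 1.35 CPM in libraries labelled KO and 4.91 ± 1.62 CPM in Control. Ccnb2, cyclin B2, averaged 11.5 ± 2.72 CPM in libraries labelled KO and 15 ± 6.74 CPM in Control. Cdc20, the activator of the anaphase-promoting complex that ends mitosis, averaged 9.20 ± 2.09 CPM in libraries labelled KO and 15.9 ± 6.76 CPM in Control (log2 -0.79 ± 0.33, SE, edgeR adjusted p = 0.107). Ccnb1 and Cdk1 were not called in any of the 19 alternatives, while Ccnb2 and Cdc20 were called without Control replicate 4 alone (edgeR adjusted p = 0.0352 and 0.00525).

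Mitotic kinases and checkpoint genes showed the same order of libraries. Bub1b, which encodes the checkpoint protein BubR1, had 25.9, 18.3, 25.8, 24 and 28.2 CPM in libraries labelled KO and 35.8, 34.3, 36.2 and 18 CPM in Control. The first 3 Control libraries were close together and the fourth was near the lowest library labelled KO (log2 -0.35 ± 0.21, SE, edgeR adjusted p = 0.233, and 0.0176 without Control replicate 4). Bub1, the checkpoint kinase, had 6.10, 2.78, 6.86, 4.97 and 5.11 CPM in libraries labelled KO and 10, 9.84, 11.7 and 4.31 CPM in Control (log2 -0.80 ± 0.32, SE, edgeR adjusted p = 0.0867, and 0.0195 without that library). Aurka, the centrosome kinase, averaged 4.94 ± 1.36 CPM in libraries labelled KO and 7.58 ± 3.04 CPM in Control, and was called without Control replicate 4 alone (log2 -0.62 ± 0.33, SE, edgeR adjusted p = 0.193 with all libraries and 0.0321 without it). Plk1, the polo kinase of mitotic entry and exit, averaged 10.9 ± 2.20 CPM in libraries labelled KO and 13.8 ± 4.36 CPM in Control (log2 -0.35 ± 0.24, SE, edgeR adjusted p = 0.308) and was not called in any alternative.

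The chromosomal passenger complex corrects faulty attachments of chromosomes to the spindle. Its kinase gene Aurkb had 10.5, 4.51, 11.2, 7.22 and 7.31 CPM in libraries labelled KO and 14.2, 16.2, 14.2 and 6.38 CPM in Control (log2 -0.65 ± 0.31, SE, edgeR adjusted p = 0.153). Its partner genes Birc5, for survivin, and Cdca8, for borealin, had log2 fold changes of -0.60 ± 0.30 and -0.69 ± 0.32 (SE), with edgeR adjusted p = 0.165 and 0.133. Without Control replicate 4 all 3 genes passed, at edgeR adjusted p = 0.0411 for Aurkb, 0.05 (just under the threshold before rounding) for Birc5 and 0.0298 for Cdca8. Leaving out the lowest Control library favours such calls.

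Kif23 was the single mitotic-phase member called. It encodes MKLP1, a motor of the central spindle that is needed to finish cytokinesis (ENSMUSG00000032254, GRCm38 chromosome 9, 61915905 to 61946774, minus strand). Libraries labelled KO had 13.3, 7.75, 17.0, 11.9 and 13.2 CPM, and Control libraries had 24.7, 29.5, 35.4 and 12.6 CPM, the last inside the range of the libraries labelled KO. Kif23 was 2.02-fold lower (log2 -1.01 ± 0.29, SE, edgeR adjusted p = 0.0278). The call was held in 12 of 19 alternatives, with adjusted p between 0.00384 and 0.0840. Leaving out 1 library ended it for Control replicate 1, 2 or 3 (edgeR adjusted p = 0.0573, 0.0753 and 0.0840) and for replicate 4 of the libraries labelled KO (0.0536). Without a filter on low counts the adjusted p was 0.0696, and with limma-voom 0.0517.

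The other members of the kinetochore, spindle and cytokinesis role missed the threshold. Prc1, which bundles the microtubules of the central spindle and had the highest mean CPM of this role, not scaled to length, had 27.8, 9.47, 27.7, 22.2 and 25.6 CPM in libraries labelled KO and 41.6, 43.2, 53.2 and 17.1 CPM in Control (log2 -0.78 ± 0.36, SE, edgeR adjusted p = 0.135). Tpx2, which activates Aurora A on the spindle, had 17.6, 8.79, 19.6, 15.1 and 19.1 CPM in libraries labelled KO and 29.2, 33.6, 35.0 and 14.7 CPM in Control (log2 -0.81 ± 0.29, SE, edgeR adjusted p = 0.0603). Cenpf, a large kinetochore protein, had 13.9, 5.62, 12.7, 11 and 15.1 CPM in libraries labelled KO and 21.1, 22.8, 28.4 and 11.4 CPM in Control (log2 -0.84 ± 0.31, SE, edgeR adjusted p = 0.0675). In each, the same 3 Control libraries stood above all 5 libraries labelled KO. Without Control replicate 4 the edgeR adjusted p was 0.0389 for Prc1, 0.0139 for Tpx2 and 0.0258 for Cenpf.

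The remaining 5 genes of this role lay in the same direction. The spindle-associated gene Nusap1 and the cytokinesis scaffold gene Anln (anillin) had log2 fold changes of -0.88 ± 0.38 and -0.65 ± 0.33 (SE), and passed without Control replicate 4 (edgeR adjusted p = 0.0382 and 0.0313). The motor gene Kif11, whose product pushes spindle poles apart, had -0.69 ± 0.35, the kinetochore motor gene Cenpe -0.39 ± 0.33 and the spindle gene Hmmr -0.62 ± 0.38 (log2 fold changes, SE). These 3 were not called with or without Control replicate 4, with edgeR adjusted p = 0.0667, 0.149 and 0.0530 without it.

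**Figure D3:**
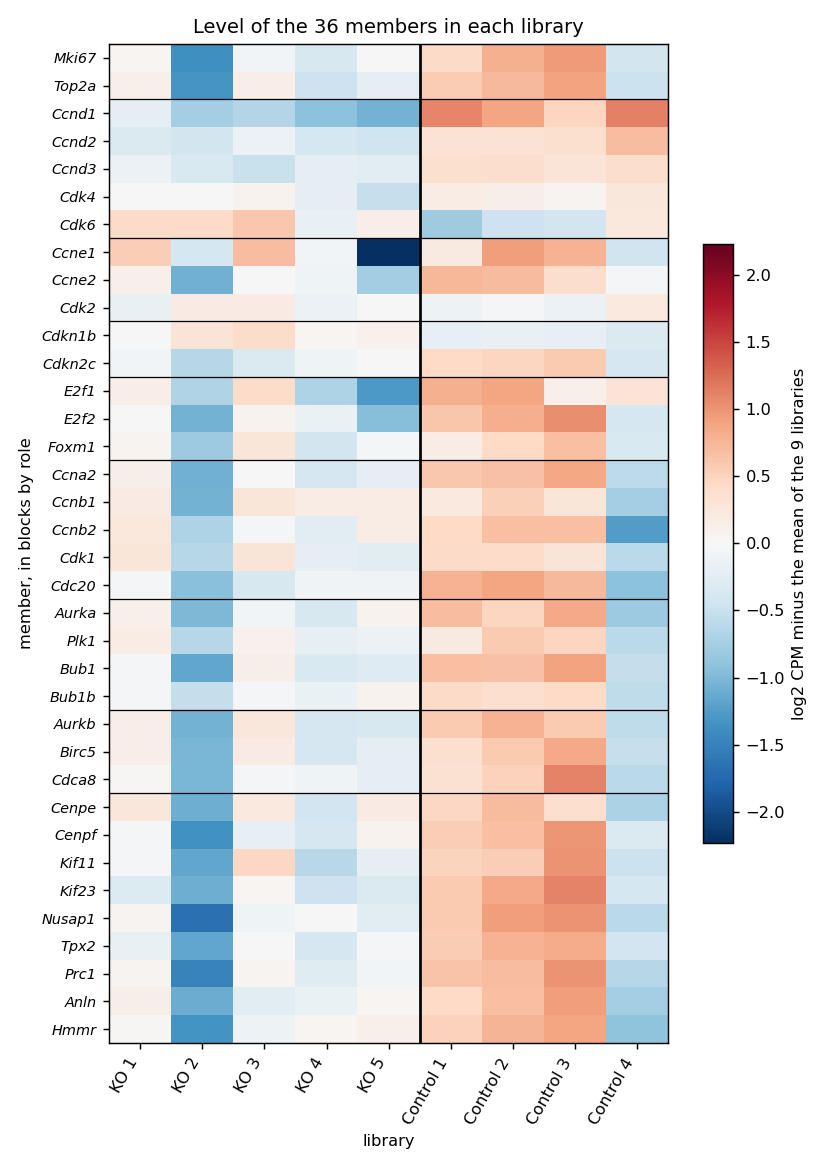
Log2 CPM of the 36 members (rows, in blocks by role) in the 5 libraries labelled KO and the 4 Control libraries (columns), each minus the gene's mean over the 9 libraries. The mitotic blocks in the lower part are lowest in replicate 2 of the libraries labelled KO (185.1 CPM summed over the 23 genes) and low in Control replicate 4 (267.3 CPM), while the row of Ccnd1 is highest in that same Control library (685.2 CPM).

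Ccnd1 and Ccnd2 did not rank the Control libraries as the mitotic genes did. Ccnd3 differed little between Control libraries (183.3 to 196.7 CPM) and was highest in Control replicate 2. Control replicate 4 had the most Ccnd1 (685.2 CPM) and the most Ccnd2 (274.1 CPM) of the Control libraries, and the least of each of the 23 mitotic genes. Without it, a fit that compares 5 libraries with 3, the number of members called lower was 23 in place of 4, with 2 higher, while 13.1% of all genes tested were lower and 12.2% higher. Of the 23 mitotic-phase members, 17 were then called lower, and the median log2 fold change of the 23 was -0.91. Control replicate 4 was singled out because it was the lowest Control library for these genes, so leaving it out favours such calls, and the counts without it are a description that the shares of all genes do not test. Without replicate 2 of the libraries labelled KO, the lowest library, 4 members were called lower, beside 2035 of all genes. The median of the 23 then moved to -0.52. Replicates 2 and 3 labelled KO had the lowest scores on the second principal component. Dropping both left 4 members lower and 1 higher, beside 2167 lower and 2108 higher of all genes.

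**Figure D4:**
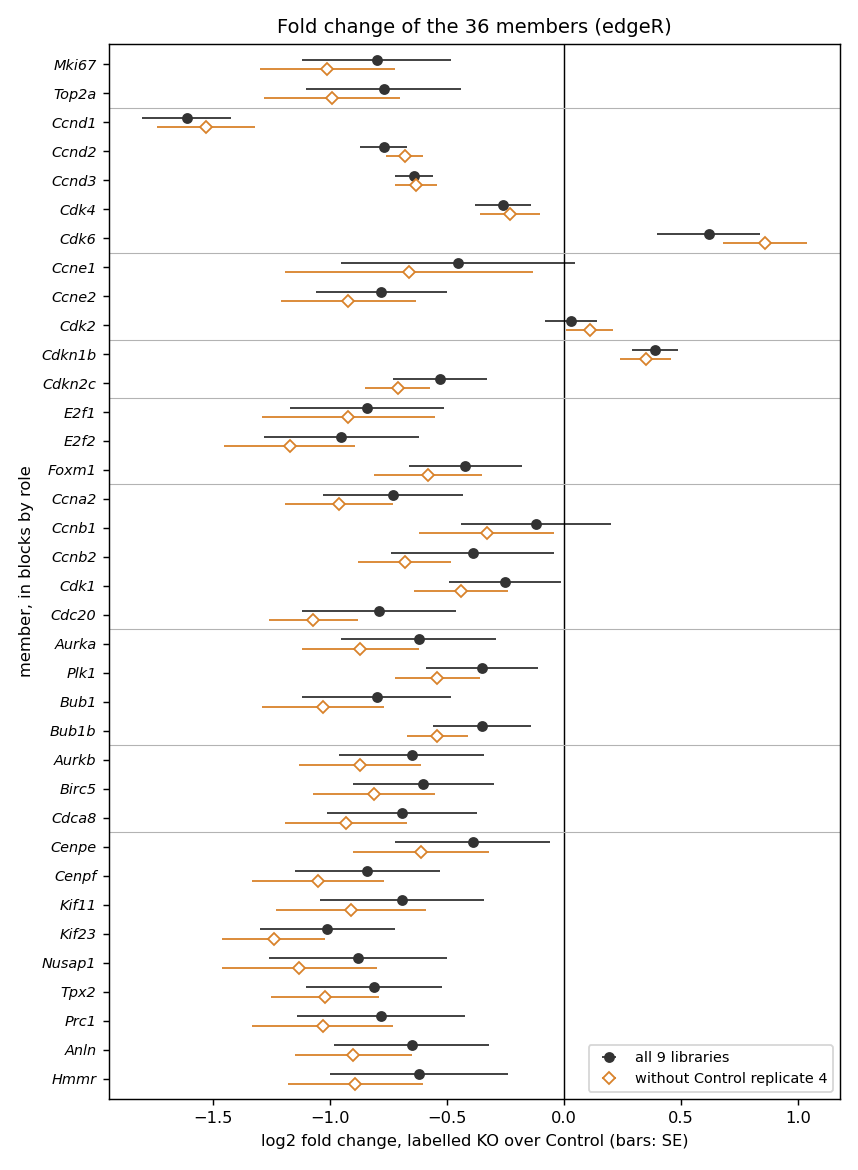
Log2 fold change of each member, labelled KO over Control (x axis, bars are SE), with all 9 libraries (filled circles) and without Control replicate 4 (open diamonds). With all libraries and without that one, Ccnd1 lies at -1.61 and -1.53, Ccnd2 at -0.77 and -0.68, and Ccnd3 at -0.64 and -0.63. Cdkn1b lies at 0.39 and 0.35. Each mitotic-phase gene lies further left without Control replicate 4, with medians of -0.69 and -0.91 over the 23.

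The count of calls differed between tests. DESeq2 called 12 members lower, of which 5 were mitotic, and 2 higher, beside 17.0% of all genes lower and 17.4% higher. The 8 lower genes that DESeq2 added were Mki67, Ccne2, Cdkn2c, E2f1, E2f2, Bub1, Cenpf and Tpx2, and the further higher gene was Cdk6. Limma-voom called 3 lower, the D cyclins, and 2 higher, Cdkn1b and Cdk6, beside 15.6% of all genes lower and 13.6% higher. At an unadjusted p under 0.05 in edgeR, 17 members were lower and 2 higher, beside 20.4% of all genes lower and 20.3% higher.

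Other genes of the cycle were read from lists of known function, which were chosen with earlier results of these data known. Of 50 further mitotic genes, 6 were lower and 1 higher, beside 14.8% of all genes lower and 14.5% higher. Their median log2 fold change was -0.67. Cenpa, which encodes the histone H3 variant that marks the centromere, had 23.6, 16.4, 27.2, 21.7 and 25.4 CPM in libraries labelled KO and 58.8, 67.4, 96.5 and 61.6 CPM in Control. Unlike the members of the block, Cenpa showed no overlap, and Control replicate 4 lay among the other Control libraries (log2 -1.63 ± 0.18, SE, edgeR adjusted p = 2.17e-04). The condensin gene Smc2 averaged 18.9 ± 3.11 CPM in libraries labelled KO and 31.7 ± 3.77 CPM in Control, again without overlap, and the separase gene Espl1 differed by -1.30 ± 0.30 on the log2 scale (SE, edgeR adjusted p = 0.00996). Cit, the citron kinase gene, was the 1 that rose (log2 1.14 ± 0.28, SE, edgeR adjusted p = 0.0144). Without Control replicate 4, 25 of the 50 were lower and 1 higher, beside 13.1% of all genes lower and 12.2% higher. That library was singled out for its low mitotic values, so these shares do not test the count.

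Of 28 further regulators of G1 and of the transition into mitosis, 6 were lower and 1 higher, beside 14.8% of all genes lower and 14.5% higher. Their median was -0.06. The inhibitor gene Cdkn2b, which encodes p15, rose to 6.85 ± 1.28 CPM in libraries labelled KO, against 3.16 ± 0.495 CPM in Control (log2 1.11 ± 0.18, SE, edgeR adjusted p = 0.00182). Wee1, the kinase that restrains CDK1, had a log2 fold change of -1.23 ± 0.23, Rbl1, for the pocket protein p107, -0.82 ± 0.15, and the MuvB subunit gene Lin54 -0.35 ± 0.07 (SE, edgeR adjusted p = 0.00336, 0.00297 and 0.00620). Of 30 DNA replication genes, 11 were lower and 1 higher, beside the same shares of all genes, with a median of -0.61. Without Control replicate 4, 15 were lower, beside 13.1% of all genes. The ribonucleotide reductase gene Rrm1 and the DNA polymerase gene Pola1 had log2 fold changes of -0.74 ± 0.11 and -0.96 ± 0.16 (SE, edgeR adjusted p = 0.00107 and 0.00182), and their groups did not overlap. The helicase genes Mcm3 and Mcm6 fell too, at edgeR adjusted p = 1.07e-04 and 0.00122.

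Markers of other cells were read beside these results. The 8 endothelial markers were detected in all libraries, and summed to between 14292 and 21921 CPM in libraries labelled KO and between 21097 and 22728 CPM in Control, with 2 of 8, Tie1 and Tek, lower. The lower sums were those of replicates 2 and 3 of the libraries labelled KO (14738 and 14292 CPM), of which replicate 2 had the lowest mitotic sum and replicate 3 did not. Erythroid markers summed to 46.8 CPM in replicate 2 and to 6.42 to 18.7 CPM in the other libraries labelled KO. In Control they summed to 28.2 CPM in replicate 4 and 15.7 to 20.2 CPM in the others. The library with the least mitotic RNA thus had the most erythroid RNA in each group, a pattern of 1 library per group. Replicate 2 labelled KO also led its group in Kupffer cell, leukocyte, stellate cell and cholangiocyte markers, though not in neutrophil or hepatocyte markers. None of the 3 erythroid markers tested was called, and Klf1 had a lowest value of 0 CPM among Control libraries. Kupffer cell markers summed to 66.1 to 512.8 CPM in libraries labelled KO, highest in replicate 2, and to 69.4 to 327.9 CPM in Control, highest in replicate 1, with 0 of 6 called. Leukocyte markers summed to 7.81 to 14.6 CPM in libraries labelled KO and 5.79 to 11.3 CPM in Control, with 0 of the 4 tested called.

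Neutrophil markers separated the groups, with 2 of 4, S100a8 and S100a9, higher, and sums of 6.11 to 17.9 CPM in libraries labelled KO and 0.378 to 3.78 CPM in Control. Mpo and Elane were at 0 in every Control library, but their lowest value in libraries labelled KO was 0 as well. They reached at most 1.33 CPM (Mpo) and 0.0736 CPM (Elane) there, and neither was tested. Hepatocyte markers summed to 16.6 to 194.7 CPM in libraries labelled KO and to 147.0 to 341.1 CPM in Control, with 0 of 6 called. Markers of stellate cells and of cholangiocytes stayed at or under 14.4 and 2.68 CPM in sum in every library, with 0 called. The part of any of these cells in the levels of the members was not tested.

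Of the 36 members, 15 share exon bases with another annotated gene, and for 10 of them that gene was tested. No tested partner of a called member was called. LTO1, opposite Ccnd1 over 1100 bases, lay at 32 ± 3.21 CPM in libraries labelled KO and 26.9 ± 2.61 CPM in Control (edgeR adjusted p = 0.0816), and Bysl, opposite Ccnd3 over 361 bases, at 16.8 ± 3.81 CPM in libraries labelled KO and 18.4 ± 2.69 CPM in Control. Kif23 and Cdkn1b share no exon with another gene. Pseudogene copies of Ccnb1, Ccnb2 and Ccnd3 had at most 5 counts in any library.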

How the data were processed

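Polyadenylated RNA of sorted liver endothelial cells was sequenced in 9 libraries, 5 labelled Erg and Fli1 double knockout and 4 Control. The authors deposited raw counts per Ensembl gene, and 0 columns were left unused. The submitters' processing notes name STAR 2.7.6a, FastQC 0.11.5 and the build GRCm38. How reads were counted and whether strand was used is not given in the sources used here, and the labels name an unstranded and a stranded kit without saying which library had which, so overlapping genes may share reads.

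Groups came from the sample titles. Symbols, positions and exon lengths came from GENCODE M21 on GRCm38 (52489 of 52636 identifiers matched). Genes were filtered with filterByExpr (minimum count 10, minimum total 15), scaled by TMM and compared in R 4.3.3 through robust glmQLFit and glmQLFTest of edgeR 4.0.16 without covariates, with Benjamini-Hochberg adjustment over all 14583 genes and a threshold of 0.05. The SE is the log2 fold change over the square root of F. The fit was tested on simulated counts with known changes before it was used. Ratios of gene pairs were tested with SciPy 1.17.1. No 2 libraries of a group were alike to within counting error (chi-square over degrees of freedom at least 20.3).

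The members, lists and tests were chosen with earlier results of these data known. Values per library are given for called members, the member of each role with the highest mean CPM, Mki67 and Top2a, and up to 8 called by DESeq2 1.42.0 or limma-voom (limma 3.58.1) alone; from each further list up to 4 genes with the smallest p are named. Protein sequences were not used here, and the promoters of Ccnd3, Cdkn1b, Kif23, Ccnb2, Cdk1 and Top2a were chosen after values were seen. The alternatives were those 2 tools, 3 other scalings, 2 other count filters, a replicate block, a sex term (sex read from Xist and Ddx3y, 3 female and 2 male libraries labelled KO against 1 female and 3 male Control libraries), and leaving out libraries. The level of 1 marker gene is not reported here.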

Additional observations from a re-analysis of the deposited data

Results flagged for a closer look

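In 96 groups of values for members, targeted genes and sums by role, 10 held 1 library whose gap to the next exceeded the critical value of Dixon's test, where chance flags about 1 in 20. The groups are not independent, since the sums hold members and the mitotic genes moved together. The same library can thus be flagged several times, and that rate does not test the 10. Control replicate 4 stood alone in 6 of the 10 as the lowest Control library. Its values were 14.8 CPM for Cdk1 (27.6 to 30.1 in the other Control libraries), 5.82 CPM for Cdc20 (18.3 to 20.4) and 18 CPM for Bub1b (34.3 to 36.2). In the sums it held 119.8 CPM of CDK inhibitors (147.9 to 151.0 in the others), 44.8 CPM of mitotic cyclins with Cdk1 and Cdc20 (107.9 to 115.3) and 33.3 CPM of mitotic kinases and checkpoint genes (68.6 to 74.4). The same library stood alone as the highest for Ccnd2, with 274.1 CPM (211.8 to 218.2 in the others). Replicate 2 of the libraries labelled KO stood alone as the lowest for Ccnb1 at 2.13 CPM (5.01 to 5.38 in the others), for Nusap1 at 3.36 CPM (9.02 to 11.2) and for Hmmr at 3.06 CPM (7.17 to 8.38).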

How the results depend on the processing

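Across 19 alternatives for 36 members and the targeted genes, 670 values kept their direction and their side of the threshold, 36 passed newly, 8 lost their call and 8 turned sign. The members called lower numbered 12 by DESeq2, and 3 to 23 when 1 library was left out, 23 being the value without Control replicate 4. Of all genes, 2486 were lower by DESeq2 and 1591 to 2040 when 1 library was left out. The members called higher numbered 2 by DESeq2, by limma-voom and with library totals alone, and 1 to 2 when 1 library was left out. Of all genes, 2543, 1980 and 2623 were higher in those fits, and 1495 to 1981 when 1 library was left out. The sign turned for members near 0: Cdk2 reached -0.08 without replicates 2 and 3 of the libraries labelled KO and lay between -0.01 and 0.11 when 1 library was left out, and Ccnb1 reached 0.05 without that pair and lay between -0.33 and 0.07 when 1 library was left out (log2 fold changes), and the cause was not tested. A sex term, with sex unbalanced between the groups, gave 6 members lower and 1 higher, beside 1945 lower and 1895 higher of all genes.

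Replicate numbers did not pair the libraries: deviations of same-numbered libraries correlated at 0.291, -0.0308, -0.0183 and -0.333, and 1 of 4 Control libraries correlated best with its own number. With the replicate number as a block, 1375 genes were lower and 1296 higher in place of 2161 and 2110, 3 members were lower (Kif23 at adjusted p = 0.069 lost its call) and 1 higher. Leaving out 1 library gave 1591 to 2040 genes lower and 1495 to 1981 higher.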
